A study of Mus musculus with 12 samples.

Results

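The comparison described here set cells given a miR-335-5p mimic against cells given a non-targeting (NT) mimic at day 3 of differentiation. It used 6 of the 12 libraries of the experiment, 3 for each mimic, chosen by their labels and paired by replicate number (1 with 1, 2 with 2 and 3 with 3). The cells were 3T3-L1, a single mouse fibroblast line that takes on fat cell features after hormonal induction. In the miR-335-5p group, the sub-confluent fibroblasts received 20 nM of the mimic by lipofection for 48 h, and the NT group received a scrambled mimic in its place. Both groups were then kept for 3 days with insulin, 3-isobutyl-1-methylxanthine, rosiglitazone and dexamethasone, so every library shared these agents and a transfection. The other 6 libraries came from day 6, after insulin alone and then medium without it, and serve in what follows to set an effect beside that of a later day. They also entered the main fit, where they help set the spread behind every day 3 p-value. Nothing in the labels says whether replicate numbers mark separate cultures, so p-values measure the spread between libraries only, and part of that spread may be technical.

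MicroRNAs are short RNAs that guide an Argonaute protein to messenger RNAs. The guide pairs mainly through its seed, the bases near its 5′ end, with sites in 3′ untranslated regions (UTRs), and the usual outcome is faster decay and less translation of the message. miR-335 lies in an intron of Mest, an imprinted gene of mesoderm and fat tissue, and a mimic is a synthetic duplex that supplies the mature strand from outside. The mature mouse sequence is shown first because its seed, in capitals, defines the sites searched for. It is taken from RefSeq and lies on the plus strand of chromosome 6 (chr6:30741314-30741336, GRCm38.p6).

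miR-335-5p: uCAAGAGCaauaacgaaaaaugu

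Sites that pair with bases 2 to 8 read GCTCTTG, sites that pair with bases 2 to 7 and carry an A after them read CTCTTGA, and the 8-base match GCTCTTGA joins both. Of 11565 tested genes with an annotated 3′ UTR (GENCODE, GRCm38), 3.49% held an 8-base match in the longest one, 19.2% held only a 7-base match and 77.3% held none. The windows below show the sites of the 4 genes with an 8-base match and the lowest p, and of 2 of the genes called lower, with the match in capitals. Each is read from the transcript strand and numbered from the first base of the UTR.

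Ccdc9b, chromosome 2, base 1842 of 3056: ttcaggcagagagaGCTCTTGAgtccacat
Tcn2, chromosome 11, base 231 of 456: ctgaggaacaggctGCTCTTGActtcctct
BC003965, chromosome 17, base 245 of 2564: tgggtgcaccttatGCTCTTGAgttatgat
BC003965, chromosome 17, base 1741 of 2564: gccactttgtgtaaGCTCTTGAaaatggaa
Slc7a6, chromosome 8, base 278 of 2068: gactgacagctctgGCTCTTGAttcacagc
Acvrl1, chromosome 15, base 1375 of 1859: acacaggccccgacCTCTTGAgttcctcc
Angpt4, chromosome 2, base 490 of 683: ccccgagccccgtgGCTCTTGgacttcaa

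The day 3 libraries held 17815850 to 18398532 counts and 12729 to 12936 genes above 0. Values are counts per 1e+06 (CPM) after TMM scaling, so 1 CPM rests on about 18 counts. Levels differed more between replicate numbers than between mimics, which is why each difference is given per pair. In the pairs 1, 2 and 3 the SD of the log2(CPM + 0.5) differences over all 11703 tested genes was 0.19, 0.23 and 0.18, so pair 2 was the widest. Among the 9527 genes with a mean of at least 5 CPM, these differences correlated across genes at r = 0.20 between pairs 1 and 2, -0.026 between pairs 1 and 3 and 0.22 between pairs 2 and 3. Genes are not independent replicates and share their libraries, so these are descriptions only. All 15 adipocyte markers passed the expression filter, with summed levels of 10087 to 12691 CPM under miR-335-5p and 9859 to 12923 CPM under the NT mimic. Fibroblast and preadipocyte markers summed to 1909 to 2273 and 1934 to 2349 CPM. Macrophage markers summed to at most 1.79 and 2.33 CPM, with Adgre1, Ptprc, Itgam and Fcgr1 at 0, and endothelial markers to at most 1.06 and 1.08 CPM, with Kdr, Emcn and Cldn5 at 0. Bone and cartilage markers summed to 82.4 to 102 against 64.8 to 88.1 CPM, with Bglap and Acan at 0.

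**Figure D1:**
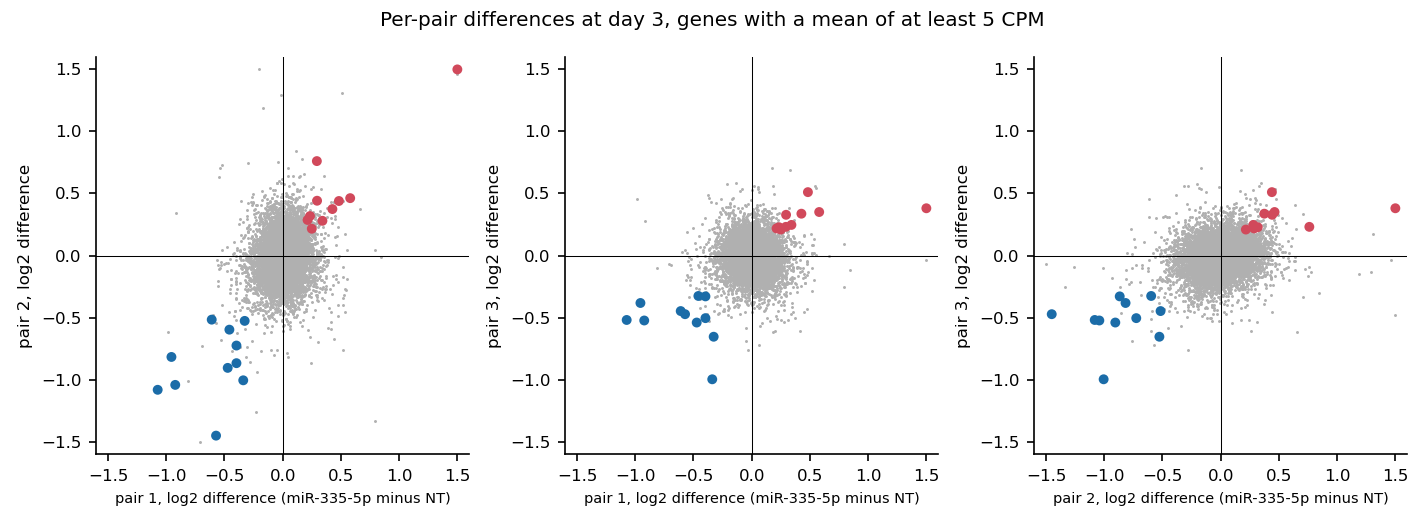
Per-pair log2(CPM + 0.5) differences, miR-335-5p minus NT mimic, at day 3. Each grey point is 1 of 9527 genes with a mean of at least 5 CPM, plotted for pairs 1 and 2, 1 and 3, and 2 and 3. Blue points are the called genes and the 10 lower genes with the largest weakest-pair difference, and red points are the 10 higher genes. Values past 1.5 either way are drawn at 1.5, which among the coloured points holds for 2210418O10Rik in pairs 1 and 2. The coloured points lie in the matching corners because agreement between pairs chose them, while the grey cloud shows little slope.

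With the miR-335-5p mimic 4 genes were lower and 0 higher past the threshold. The 4 were a cytochrome P450, a receptor of bone morphogenetic proteins (BMPs), an angiopoietin and a gene without a symbol. They were called by edgeR's quasi-likelihood test in a fit that blocked on replicate number inside each day (Benjamini-Hochberg adjusted p below 0.01). They make up 0.0342% of the 11703 genes tested. At an unadjusted p below 0.05 stood 853 genes (7.29%), of which 476 were lower (4.07%) and 377 higher (3.22%). Fitted on the day 3 libraries alone with the block, edgeR called 10 lower and 2 higher genes, the 4 among them. When the block was dropped, edgeR called 0 genes and 59 stood at that level (0.504%). The same held for DESeq2, with 0 calls and 56 genes. DESeq2 with the block called Cyp2f2, Angpt4, the gene 627914 and Prelp. Leaving out pair 1, 2 or 3 left 0 or 1 calls, namely Olr1, none and Cyp2f2.

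Cyp2f2 encodes a cytochrome P450 known from mouse airway, where it oxidises naphthalene. Its level under miR-335-5p was 5.65, 23.6 and 25.7 CPM in replicates 1, 2 and 3, and under the NT mimic it was 12.4, 50.5 and 37.1 CPM. Every miR-335-5p library lay below its partner, but the groups overlapped, since replicate 1 was low under both mimics. The fitted log2 change was -0.88 (95% interval -1.10 to -0.66, edgeR adjusted p = 0.00148). In the fits that left out 1 pair it ran from -1.12 to -0.73, with adjusted p from 0.00015 without pair 3 to 0.167 without pair 2.

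Acvrl1 encodes ALK1, a type I receptor for BMP ligands that is best known in vessel walls. It stood at 18.1, 29.8 and 42.0 CPM under miR-335-5p and 25.0, 45.4 and 52.8 CPM under the NT mimic. The order of the replicate numbers was the same under both mimics, with each miR-335-5p value below its partner. The log2 change was -0.46 (95% interval -0.61 to -0.32, edgeR adjusted p = 0.00949). Without 1 pair adjusted p ran from 0.0546 to 0.352. Its 3′ UTR holds the 7-base match shown above.

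Angpt4 encodes an angiopoietin, a secreted ligand of the receptor Tek. It stood at 23.3, 12.2 and 22.7 CPM under miR-335-5p and at 35.9, 17.73 and 31.1 CPM under the NT mimic, so replicate 2 was the lowest of each group. The log2 change was -0.54 (95% interval -0.71 to -0.36, edgeR adjusted p = 0.00949), and without 1 pair adjusted p ran from 0.0942 to 0.202. A 7-base match lies in its 3′ UTR as well. Only a 7-base match was held by 19.2% of all tested genes with a UTR. Among the higher genes given below, Niban1, 2610008E11Rik, Mysm1 and 2210418O10Rik hold one too, so such a match is not particular to lower genes.

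The gene with identifier 627914 has no symbol in the annotation used. Its levels were 4.14, 6.24 and 4.51 CPM under miR-335-5p and 8.30, 13.4 and 6.71 CPM under the NT mimic. It was the only called gene whose groups did not overlap, a property shared by 4.23% of all genes tested. The log2 change was -0.92 (95% interval -1.21 to -0.63, edgeR adjusted p = 0.00949), and without 1 pair adjusted p ran from 0.0409 to 0.415.

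**Figure D2:**
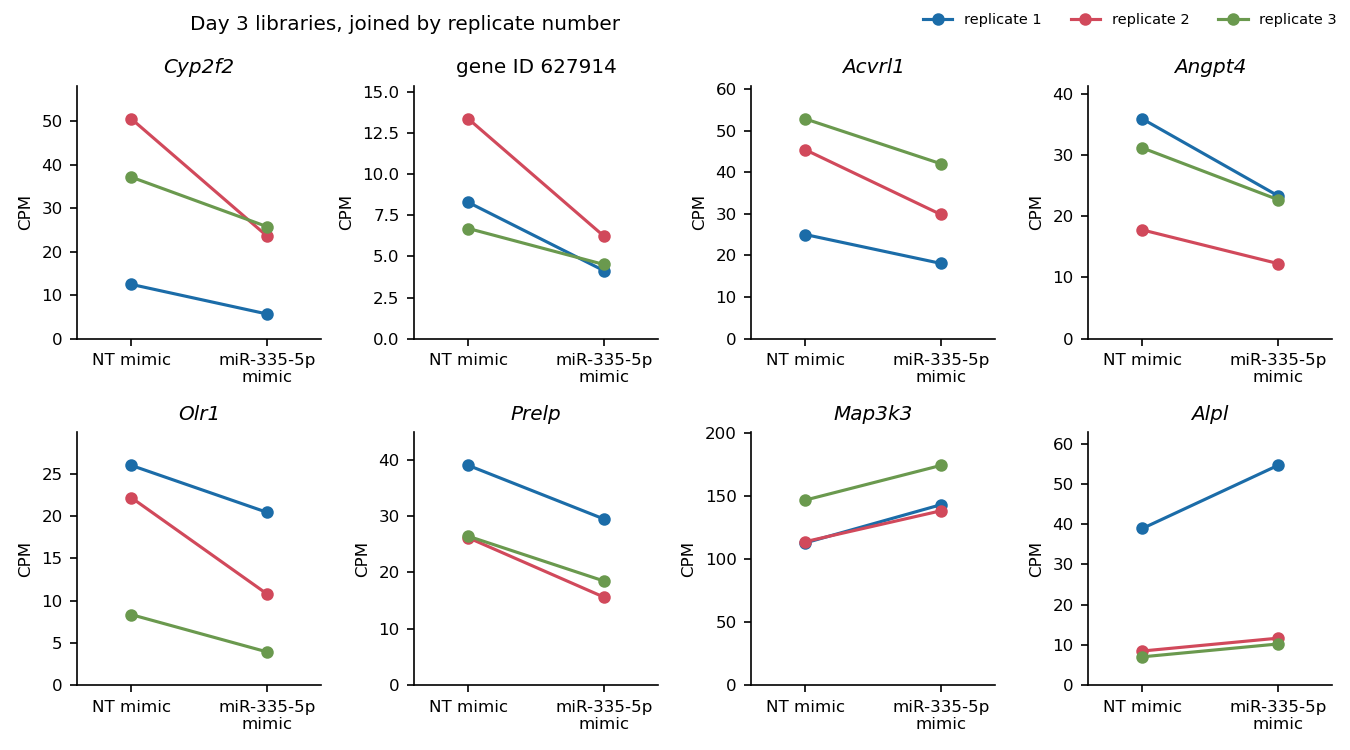
Levels in CPM (y axis, from 0) of 8 genes in the 6 day 3 libraries. Each line joins the NT and miR-335-5p libraries with the same replicate number, and the top row shows the 4 called genes. All lines of the 4 called genes, Olr1 and Prelp slope down, and those of Map3k3 and Alpl slope up. The distance between lines is mostly as large as their slope.

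At a looser adjusted p below 0.05 there were 8 genes (0.0684%), of which 7 were lower (0.0598%) and 1 higher. Olr1, the receptor LOX-1 for oxidised low-density lipoprotein, stood at 20.5, 10.8 and 3.93 CPM against 26.0, 22.2 and 8.34 CPM (log2 -0.74, adjusted p = 0.0256). Prelp, a leucine-rich proteoglycan of basement membranes, stood at 29.5, 15.6 and 18.5 against 39.0, 26.1 and 26.4 CPM (log2 -0.54, adjusted p = 0.0407). Both genes were lower in each pair with overlapping groups. Cdo1, named here after its values were seen, encodes the dioxygenase that opens the breakdown of cysteine and stood at 134, 89.4 and 55.5 against 155, 124 and 71.1 CPM (log2 -0.34, adjusted p = 0.0355). Map3k3, a kinase at the head of mitogen-activated cascades, was the single higher gene, at 143, 138 and 175 against 113, 114 and 147 CPM (log2 0.29, adjusted p = 0.0311). All of these adjusted p-values come from the edgeR fit with the block.

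Other genes were ordered by the smallest of their 3 pair differences, among genes of at least 5 CPM whose pairs had 1 sign. This ordering uses the values themselves and gives no test. Over all genes, 28.2% had the same sign in all 3 pairs, with 14.1% lower and 14.1% higher. A pair of further genes among the 10 lower ones act on alcohols and aldehydes, retinoids among them. Adh1, an alcohol dehydrogenase, stood at 12.02, 4.92 and 11.1 CPM under miR-335-5p and 18.1, 14.3 and 15.6 CPM under the NT mimic. Aldh1a1, a retinaldehyde dehydrogenase, stood at 4.47, 4.98 and 6.98 against 9.15, 9.16 and 9.24 CPM. The groups of both genes were apart, and their log2 changes were -0.80 and -0.76 (95% intervals -1.20 to -0.40 and -1.07 to -0.44, edgeR adjusted p = 0.313 and 0.0718).

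The remaining lower genes were Prl2c2, Nlrc5 and Ctla2b. Prl2c2 encodes proliferin, a secreted relative of prolactin that proliferating mouse fibroblasts make, and had pair differences of -0.47, -0.91 and -0.54. Nlrc5, a transcriptional activator of MHC class I genes, stood at 9.28, 3.12 and 3.99 against 12.4, 6.11 and 5.14 CPM. Ctla2b, a relative of cathepsin propeptides, had pair differences of -0.33, -0.53 and -0.65. All 3 had overlapping groups and an edgeR adjusted p of 0.282 or more. Ctla2b was just inside the rule, while Acvrl1 (smallest difference -0.326) and Layn, a hyaluronan receptor (-0.325), were just outside it, against -0.327 for Ctla2b.

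Among the 10 higher genes, Alpl had the largest weakest-pair difference, 0.44. It encodes tissue-nonspecific alkaline phosphatase, an enzyme of mineralising bone that fibroblasts also carry, and stood at 54.6, 11.6 and 10.2 CPM under miR-335-5p and 38.9, 8.45 and 7.01 CPM under the NT mimic. Replicate 1 was several times higher than the others under both mimics, and the log2 change was 0.49 (95% interval 0.29 to 0.70, edgeR adjusted p = 0.0718). Alpl is on the bone and cartilage list, of which 6 of 10 genes were tested. Of these 5 lay above 0, and 2 were higher in all pairs, Alpl among them. The 1 member higher at an unadjusted p below 0.05 (3.22% of all genes) was Alpl itself. The median log2 change of the 6 was 0.21, with pair medians of 0.088, 0.28 and 0.25. It was 0.39 without pair 1 and 0.076 without pair 2. The defining genes Bglap and Acan were at 0, and at day 6 the median was -0.069. Niban1, a stress-induced protein, stood at 12.3, 16.0 and 13.8 against 8.07, 11.4 and 10.7 CPM, with no overlap of the groups (log2 0.48, adjusted p = 0.135). Nqo1, a quinone reductase controlled by NRF2, stood at 7.21, 5.52 and 6.68 against 5.80, 3.05 and 5.62 CPM (log2 0.43, adjusted p = 0.437).

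Cell cycle and chromatin genes were also in this group, at small sizes. Lin9, a subunit of the complex that times cell cycle transcription, had a log2 change of 0.42, and Dtl, which brings replication factors to a ubiquitin ligase, of 0.27. Mysm1, a histone H2A deubiquitinase, had a log2 change of 0.25 with no overlap of the groups, at 17.9 to 19.8 against 15.3 to 16.5 CPM. The unnamed gene 2610008E11Rik stood at 0.37 and Tbc1d31 at 0.23. Their adjusted p-values in edgeR were 0.313 or more. The gene 2210418O10Rik met the rule with 18.96, 50.7 and 30.4 CPM under miR-335-5p and 0.739, 3.52 and 23.2 CPM under the NT mimic. Its pairs were far from even and its interval ran from -0.93 to 5.13, so its log2 change of 2.10 says little. Tbc1d31 was the last gene inside the rule (smallest difference 0.209), and Frk (0.204) and Arl5b (0.203) were just outside.

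The lists of genes by function follow. For each, the counts of members are set beside the 4.07% lower and 3.22% higher at an unadjusted p below 0.05, the 14.1% with 3 pairs lower and 14.1% with 3 pairs higher, the 49.5% with a fitted value above 0 and 50.5% below, and the median of all genes, -0.0012. Many list counts and medians moved by over 1.5 times when 1 pair was left out. Over all genes 476 were lower at that level with all pairs, and 593, 233 and 540 without pair 1, 2 or 3. Only Cyp2f2, Acvrl1 and Angpt4 were called members of any list.

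Cytochrome P450 genes lay mostly below 0, and aldehyde dehydrogenase and retinoid genes had no common direction. Of 17 tested cytochrome P450 genes and partners 15 had a fitted value below 0, 6 were lower in all pairs (35.3%), none was higher in all pairs, and 5 were lower at an unadjusted p below 0.05. The median log2 change was -0.19, and -0.16, -0.14 and -0.040 in pairs 1, 2 and 3. Cyp4v3, a fatty acid hydroxylase, stood at 16.4, 15.2 and 19.9 against 24.6, 22.4 and 19.3 CPM, so pair 3 did not share the difference. The other lower members were Cyp2e1 and Cyp2j9, both under 2 CPM, and Cyp26b1, which are singled out only because their values had been seen. Without pair 1 the list's median was -0.050 and 2 members were at an unadjusted p below 0.05, against 5. Dropping the block also left 2 members at that level. At day 6 the list's median was -0.032, with 10 members below 0 and 7 above. Of 20 aldehyde dehydrogenase and retinoid genes 2 were lower at that level, Aldh1a1 and Aldh1a7, the latter at 346, 565 and 661 against 508, 650 and 738 CPM (log2 -0.30), and 1 was higher. In all pairs 5 were lower and 4 higher, and the list's median was -0.015.

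Receptors and ligands of the TGF-beta and BMP family split evenly, with 9 of 18 above 0 and 9 below. Besides Acvrl1, the activin receptor Acvr1b was lower at an unadjusted p below 0.05, at 232, 265 and 304 against 257, 298 and 334 CPM (log2 -0.15). Its difference was nearly the same in every pair. None of the 18 mediators and targets of the pathway was at that level in either direction. Among 12 angiopoietin and VEGF family genes, Nrp1, a coreceptor of VEGF, was lower beside Angpt4, at 130, 132 and 175 against 151, 155 and 181 CPM (log2 -0.16), and 6 of the 12 lay above 0.

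Matrix enzymes were lower more often than higher. Of 25 crosslinking enzymes, proteases and inhibitors 20 lay below 0, with 7 lower and 1 higher in all pairs, and 6 were at an unadjusted p below 0.05, all of them lower. Mmp2, a gelatinase, stood at 467, 343 and 730 against 528, 466 and 799 CPM (log2 -0.25). Plod2, a collagen lysyl hydroxylase, stood at 199, 218 and 225 against 236, 259 and 236 CPM with no overlap of the groups (log2 -0.19). The list's median was -0.11, and -0.039 without pair 2 and -0.039 without pair 3, with 2 and 5 members then at that level. Dropping the block left 0 members there. Collagens were balanced, with 2 of 19 lower, Col16a1 (log2 -0.27) and Col18a1 (log2 -0.15), and 1 higher. Of 26 proteoglycans and matricellular proteins 4 were lower and 3 higher. Thbs2, a thrombospondin, was among the lower ones beside Prelp, at 101, 55.1 and 76.8 against 109, 76.9 and 84.3 CPM.

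Secreted acute-phase proteins and iron genes had several lower members. Of 12 tested acute-phase genes 4 were lower at an unadjusted p below 0.05 and none higher, among them Cp, ceruloplasmin, a copper oxidase that acts on iron. Cp stood at 18.01, 15.4 and 23.8 against 24.5, 26.6 and 27.7 CPM, with no overlap of the groups (log2 -0.47). The acute-phase medians in pairs 1, 2 and 3 were -0.17, -0.17 and 0.077. Without pair 2 only 1 of these genes was lower at that level, as was 1 without the block, and the list's median of -0.062 became -0.035 without pair 2 and -0.19 without pair 3. Of 14 iron genes, a list that also holds Cp, 4 were lower and 2 higher, 2 and 1 without pair 2, and 1 and 1 without the block. Fth1, the heavy chain of ferritin, stood at 1731, 1835 and 2378 against 1945, 2046 and 2583 CPM (log2 -0.15).

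Genes of fat cell function gave no common direction. Of 21 adipogenic transcription factors 10 lay above 0 and 11 below, and 1 was higher at an unadjusted p below 0.05, Stat5a, at 191, 248 and 254 against 186, 205 and 233 CPM (log2 0.15). Of 16 lipid droplet and lipolysis genes 13 lay below 0, with a median of -0.066 (-0.10 without pair 1 and -0.032 without pair 2), and 1 was at that level, the droplet coat gene Plin4 (log2 -0.11). In triglyceride synthesis 9 of 24 lay above 0, and Gpam, which makes the first glycerolipid intermediate, stood at 222, 232 and 229 against 206, 214 and 212 CPM with no overlap (log2 0.11). In fatty acid uptake and oxidation 3 of 26 were higher and 1 lower. Hadhb, a subunit of the mitochondrial trifunctional protein, stood at 203, 250 and 199 against 196, 199 and 163 CPM (log2 0.22). Of 23 genes of insulin signalling and glucose transport 16 lay above 0 and 2 were higher at that level, among them the adaptor Cbl (log2 0.17). Of 21 glycolysis and lactate genes 20 lay below 0, by a median of only -0.032, with Ldhb at -0.18. At day 6 this list had 17 members above 0 and 4 below, with a median of 0.056. The lipid droplet and lipolysis list had 12 above 0 and 4 below at day 6, with a median of 0.072.

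Genes of microRNA silencing, sterol synthesis, protein stress and cell division lay mostly above 0. Of 24 genes of microRNA processing and silencing 20 lay above 0, 10 were higher in all pairs (41.7%) and 1 lower, and 5 were higher and none lower at an unadjusted p below 0.05. Pabpc1, which binds poly(A) tails and meets the silencing complex there, stood at 1474, 1727 and 1551 against 1381, 1428 and 1443 CPM, with no overlap (log2 0.16). Tnrc6b, the GW182 protein that links Argonaute to deadenylases, stood at 125, 137 and 123 against 111, 109 and 121 CPM (log2 0.17). Without pair 2 the list's median was 0.033, against 0.052 with all pairs, and 0 members were at that level. Without pair 1 the median was 0.082, with 6 members there. Dropping the block left 0 members at that level. Of 20 cholesterol synthesis genes 15 lay above 0, with medians of 0.065, 0.057 and 0.036 in the pairs. None of them was higher at that level.

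The unfolded protein and amino acid stress list had 21 of 26 members above 0, with medians of 0.049, 0.052 and 0.064, and Eif2ak3, the sensor kinase PERK, at log2 0.20. DNA replication and mitosis genes had 21 of 28 above 0, but with medians of 0.16, -0.0088 and 0.0092, so pair 1 carried that list. Without pair 1, 13 lay above 0 and the median was -0.013, and without pair 3 it was 0.11, against 0.067 with all pairs. Aurka, a mitotic kinase, stood at 29.6, 14.6 and 16.9 against 21.6, 11.6 and 16.8 CPM.

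Interferon response and nucleic acid sensing genes lay below 0 for 17 of 25, with pair medians of -0.097, -0.085 and 0.068, so pair 3 went the other way. At an unadjusted p below 0.05, 2 members were lower and 1 higher. Sting1, the adaptor of DNA sensing, was lower, at 0.168, 0.300 and 0.234 against 0.625, 0.528 and 0.544 CPM with no overlap of the groups (log2 -1.26, 95% interval -2.13 to -0.39, edgeR adjusted p = 0.472), levels that rest on few counts. The RNA sensor gene Ddx58 was the higher one, at 14.5, 12.9 and 12.8 against 13.0, 10.3 and 9.91 CPM (log2 0.28). Without pair 1 the list's median was -0.0096, with 2 higher and 0 lower at that level, against -0.067 with all pairs, and without pair 3 0 were higher and 5 lower. Heat shock and folding genes lay below 0 for 15 of 19, with Dnajb1, a cochaperone of Hsp70, at log2 -0.14. The list's median was -0.044, and -0.023 without pair 2 and -0.071 without pair 3.

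Ribosomal protein and respiratory chain genes lay mostly below 0. Of 79 cytosolic ribosomal protein genes 75 lay below 0 and 15 were lower at an unadjusted p below 0.05, but the pair medians were -0.062, -0.19 and 0.0054. Of 77 nuclear-encoded respiratory chain subunits 71 lay below 0 and 8 were at that level, with pair medians of -0.071, -0.21 and 0.070. Without pair 2 the counts below 0 were 64 and 46, with 2 and 1 members at that level and medians of -0.025 and -0.013. Without pair 3 they were 76 and 77, with 36 and 32 members at that level and medians of -0.13 and -0.14. Without the block 0 of either list were at that level. Mitochondrial ribosomal proteins lay below 0 for 54 of 78, with pair medians of -0.052, -0.090 and 0.014 and 4 members at that level, against 0 without pair 2. The length of the transcript moved with these differences. In pair 2, the 2898 genes with the shortest transcripts (216 to 2039 bases) had a median of -0.076 and the 2898 with the longest (4680 bases and more) of 0.057, against -0.019 and 0.013 in pair 1 and -0.0021 and 0.0097 in pair 3. Among the former were 73 of the 79 ribosomal and 68 of the 77 respiratory genes, and 15 of the 24 microRNA machinery genes were among the latter. The part of transcript length in these lists was not tested. Genes with near-identical processed copies, such as those for ribosomal proteins, are also uncertain in their counts.

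**Figure D3:**
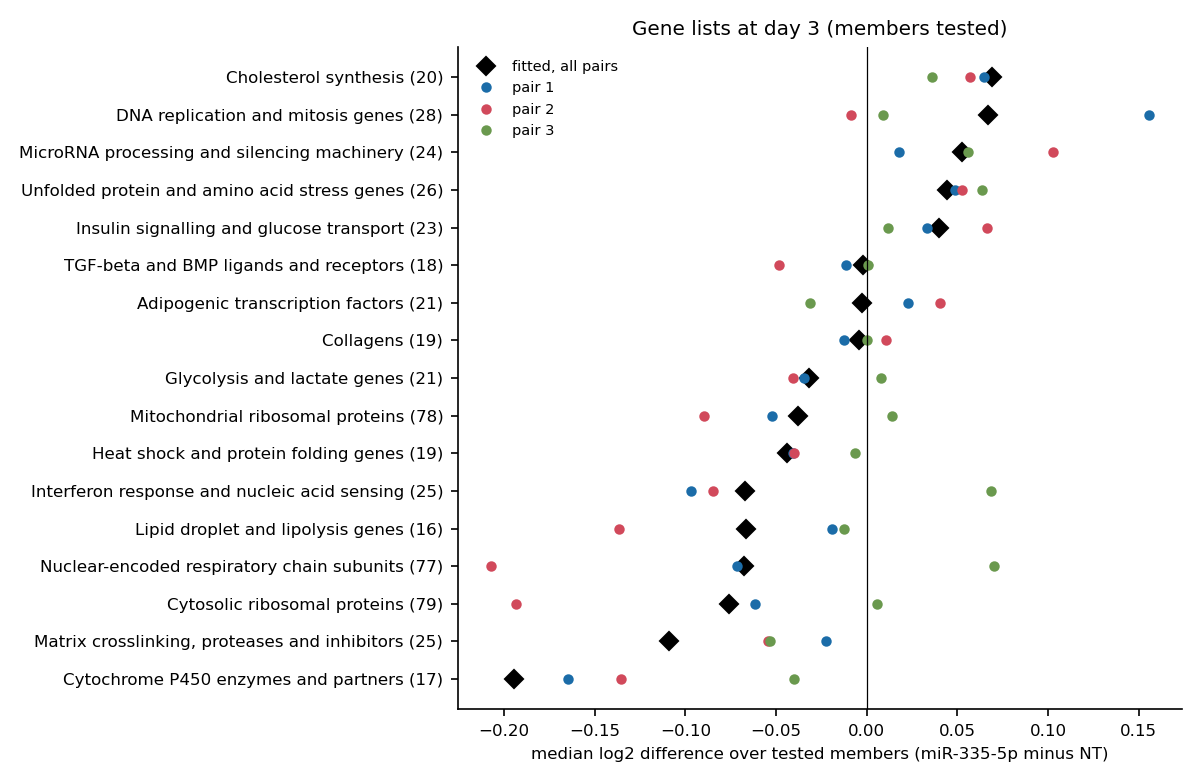
Median log2 difference, miR-335-5p minus NT mimic, over the tested members of 17 gene lists (members in brackets). Coloured points are the medians of each pair and black diamonds the medians of the fitted changes, which need not be the mean of the pair medians. Cytochrome P450 genes lie furthest below 0, at -0.19, and the respiratory chain and ribosomal lists owe their place mainly to pair 2, at -0.21 and -0.19.

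Genes with a site for the microRNA differed little as a class from genes without one. The median log2 change was -0.0060 for the 404 genes with an 8-base match, 0.0089 for the 2218 with only a 7-base match and -0.0034 for the 8943 without a match. Among the 8-base genes 20 were lower (4.95%) and 8 higher (1.98%) at an unadjusted p below 0.05. The same counts were 91 and 91 (4.10% each) for 7-base matches and 359 and 275 (4.01% and 3.08%) for genes without a match. Of the 8-base genes 17.8% were lower and 12.9% higher in all 3 pairs, against 14.04% and 13.6% without a match. Without pair 1, 2 or 3 the 8-base counts were 15 and 11, 11 and 2, and 20 and 7, lower and higher. Without the block they were 4 and 1. None of the 404 was called. The classes also differ in UTR length, with medians of 2770.5 bases for 8-base genes and 932 without a match.

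The 4 genes with an 8-base match and the lowest p were all lower, and their sites are those printed above. Ccdc9b stood at 41.6, 56.9 and 34.7 CPM under miR-335-5p and 48.1, 71.2 and 44.8 CPM under the NT mimic (log2 -0.30, 95% interval -0.43 to -0.17). Tcn2, which carries vitamin B12 in plasma, stood at 80.0, 87.1 and 60.7 against 98.8, 106 and 67.9 CPM (log2 -0.25). BC003965, whose UTR holds 2 such sites, was the only one whose groups did not overlap, at 30.4, 29.8 and 31.5 against 37.5, 38.3 and 35.9 CPM (log2 -0.29). Slc7a6, an amino acid exchanger, stood at 134, 150 and 127 against 146, 186 and 143 CPM (log2 -0.20). Their edgeR adjusted p-values were 0.120, 0.240, 0.254 and 0.276. At day 6, whose libraries shared the fit and so the spread behind these p-values, their log2 changes were -0.15, -0.16, -0.056 and -0.11. Of the 20 lower 8-base genes, 18 had a fitted value below 0 at day 6. At an unadjusted p below 0.05 there, 4 were lower, namely Ccdc9b, Tcn2, Slc7a6 and Slc37a2. The last, a sugar phosphate carrier, was named after its values were seen. For scale, 74.4% of all genes at that level at day 3 kept their sign at day 6. Of all genes tested, 53.2% lay below 0 at day 6 and 3.17% were lower at that level. The share among lower genes without a match is not given.

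Of 10 genes known as miR-335 targets in other cells, Bcl2l2, a survival factor of the Bcl-2 family, was the single one below an unadjusted p of 0.05, at 82.5, 68.4 and 72.7 against 94.5, 77.8 and 75.6 CPM (log2 -0.15), and 7 lay above 0. Gna12 and Gga3, a G protein subunit and a Golgi sorting adaptor that were put forward as targets, had log2 changes of -0.0093 (95% interval -0.17 to 0.15) and -0.033 (-0.22 to 0.15). Neither longest UTR holds a match by the letters searched. The study reported lower levels of both by qPCR in fibroblasts given the mimic. It also reported that both correlated with miR-335 on other days of 3T3-L1 differentiation. In human SGBS cells the mimic lowered GNA12, while GGA3 showed no significant effect. The study's reporter assay in HeLa cells responded for Gga3 but not for Gna12. Those measures and times differ from the day 3 libraries, so the values here do not test them.

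**Figure D4:**
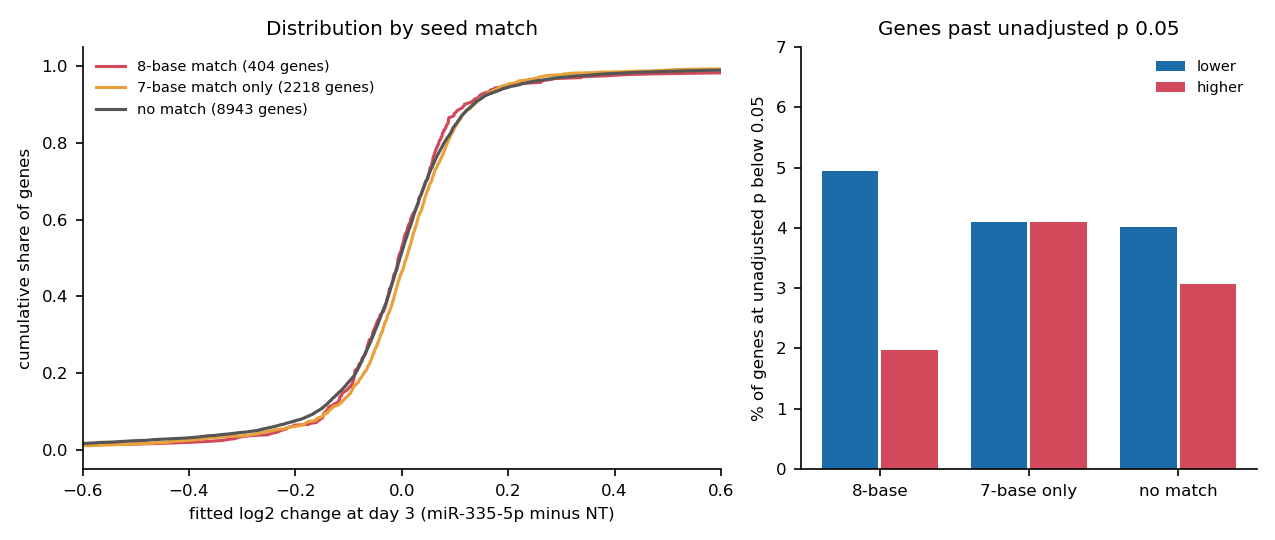
Left, cumulative share of genes (y axis) against the fitted log2 change at day 3 (x axis, cropped at 0.6 either way) for the 404 genes with an 8-base match, the 2218 with only a 7-base match and the 8943 without one. Right, percent of each class at an unadjusted p below 0.05, lower in blue and higher in red. The curves nearly coincide, and the 8-base class has 4.95% lower and 1.98% higher.

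Day 6 shared no library with day 3. The labels do not say whether the days shared cultures or transfections, so agreement between days need not be independent. Of the 853 genes at an unadjusted p below 0.05 at day 3, 74.4% had the same sign at day 6, against 58.8% of all genes. At day 6 itself edgeR with the block called 0 genes. There 593 stood at an unadjusted p below 0.05 (5.07%), 371 of them lower (3.17%), and 53.2% of all fitted values lay below 0. Cyp2f2 had a log2 change of -0.56 there (95% interval -0.75 to -0.37) and was lower in all 3 pairs of that day. Angpt4 had -0.24 (-0.38 to -0.098) and Acvrl1 -0.15 (-0.29 to -0.0035). Aldh1a1 and Adh1 had -0.52 and -0.33, with intervals below 0. Alpl, Nqo1 and Prelp had intervals that included 0, at -0.097, 0.011 and -0.089. Among the 10 higher genes, only Niban1 and Map3k3 had intervals above 0, at 0.21 (0.023 to 0.39) and 0.11 (0.0032 to 0.22). Map3k3 was higher in all 3 pairs of day 6, while Niban1 was slightly lower in pair 1. The test of the difference between days called 0 genes at an adjusted p below 0.01 (361 at an unadjusted p below 0.05, 3.08%) and 1 at an adjusted p below 0.05 (0.00854%), the gene 627914.

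**Figure D5:**
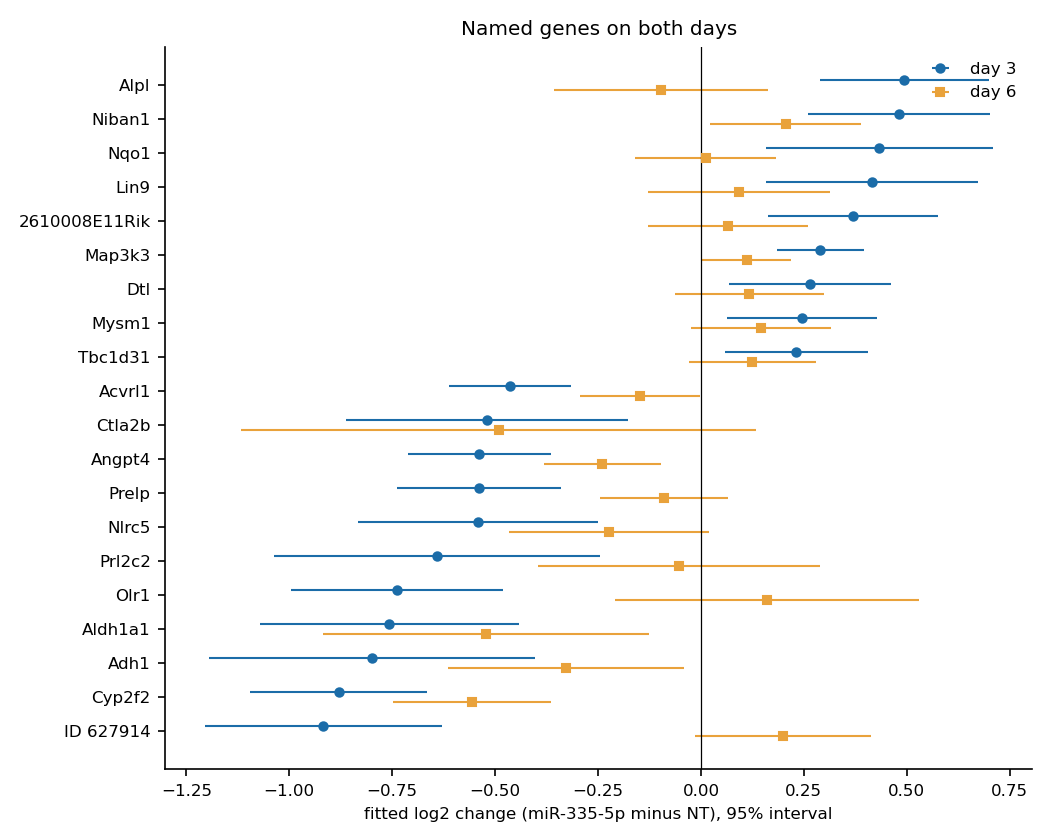
Fitted log2 change, miR-335-5p minus NT mimic, with 95% intervals, at day 3 (blue circles) and day 6 (orange squares) for the called genes and the genes with the largest weakest-pair difference. 2210418O10Rik is left out because of its width. Cyp2f2 lies below 0 on both days, at -0.88 and -0.56, while the gene 627914 and Olr1 lie below 0 at day 3 and at 0.20 and 0.16 at day 6.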

How the data were processed

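RNA was sequenced for 12 libraries in 4 groups of 3, and 6 are compared here. The deposited table holds expected counts per gene, not scaled to depth. HISAT2 2.2.1, RSEM 1.3.1 and mm39 are listed in the submitters' processing notes. The annotation, the strand setting and any filter are not given in the sources used, and genes that overlap, antisense ones included, are therefore uncertain. Non-whole values (3.37%, tolerance 1e-06) were rounded. Symbols matched 16387 of 16414 identifiers.

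Genes passing edgeR's expression filter (11703, edgeR 4.0.16, limma 3.58.1, R 4.3.3) were fitted over all 12 libraries with 6 replicate blocks, 1 per number and day, and a mimic effect per day. Counts were TMM-scaled, tests two-sided, and the threshold (adjusted p below 0.01) was the study's, which used DESeq2 and named no block. Residuals of day 3 libraries with the same number correlated at 0.793, 0.574 and 0.694, against -0.599 to 0.0381 for different numbers, so the numbers pair the samples. What a number stands for is not stated in the labels. Same-numbered libraries differed by 3.34 to 8.75 (chi-square per degree of freedom), and libraries of 1 group by 14.1 to 31.9, so none was a duplicate. With the block, the whole 95% interval lay within 1.5-fold of no change for 85.7% of genes, and for 98.9% at 5 CPM or more. The rest have a wide interval, a larger fitted change, as Cyp2f2 has, or both. Counting error and the small number of pairs widen the intervals.

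The genes named were those called, the 10 higher and 10 lower with the largest weakest-pair difference at 5 CPM or more, up to 2 members per list with the lowest p below 0.05, the 4 8-base match genes with the lowest p, those with the lowest p for the difference between days, and Mest, Gna12 and Gga3. The comparison, the 52 lists (48 with at least 5 tested members) and the named-gene rule were chosen with earlier results of these data known. Alternatives were other blocks, DESeq2 1.42.0, voom, size factors, filters, the threshold and leaving out each pair. The main fit was run on simulated data drawn from its own means and spread with the same blocks. Such data cannot show whether the block or that spread suits these libraries. A result that needs an item withheld for evaluation is not reported here.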

Additional observations from a re-analysis of the deposited data

Results flagged for a closer look

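The gene 627914 differed between the days. Its log2 change was -0.92 at day 3 and 0.20 at day 6 (95% interval -0.013 to 0.41), a difference of 1.12 (95% interval 0.76 to 1.48, edgeR adjusted p = 0.0373). All 3 pairs were below 0 at day 3, and at day 6 the pair differences were 0.28, -0.089 and 0.39.

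Olr1 had all pairs below 0 at day 3 and all pairs above 0 at day 6, the latter at 0.16, 0.16 and 0.040. The difference between its effects was 0.90 on the log2 scale (95% interval 0.45 to 1.35). It did not pass the test over all genes (edgeR adjusted p = 1, unadjusted p = 0.000549).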

How the results depend on the processing

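The count of genes called lower was 4, with 0 higher. It was 0 without the replicate block in edgeR and in DESeq2, 0 with 1 replicate block shared by both days, 1 with limma-voom and the block, 1 among genes of at least 5 CPM, and 7 lower with 1 higher at adjusted p below 0.05. It was 10 lower with 2 higher in the day 3 libraries alone, and 11 lower with 2 higher without a filter. Without a pair it was 0 to 1, the 0 being without replicate 2. RLE size factors called the same 4 genes. The median of genes without a seed match, -0.0034, ran from -0.0090 to -0.0039 without a pair. That of 8-base genes, -0.0060, ran from -0.017 without pair 3 to -0.00076 without pair 1. That of genes with only a 7-base match, 0.0089, ran from -0.0033 without pair 2 to 0.0082 without pair 1. Mest, at 0.066, ran from -0.18 to 0.74, and Gna12, at -0.0093, from -0.14 to 0.084, neither near the threshold in any fit. No other named gene changed direction. The counts for 8-base and MHC class I genes under these fits were chosen after seeing the data. Depth limits genes under 1 CPM, such as Cyp2j9, whose sizes are uncertain.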

Other observations

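Genes of antigen display by MHC class I were described after their values were seen, so their counts support nothing by themselves. MHC class I molecules show peptides on the cell surface, Nlrc5 activates their genes, and Tap1, Tap2 and the immunoproteasome supply the peptides. Of 19 tested genes 14 lay below 0 at day 3, 7 were lower in all pairs and 3 were lower at an unadjusted p below 0.05, beside 4.07% of all genes. H2-K1 had pair differences of -0.24, -0.41 and -0.21 (log2 -0.29, 95% interval -0.41 to -0.17), H2-D1 of -0.29, -0.38 and -0.039 (log2 -0.24), and Nlrc5 of -0.40, -0.87 and -0.33. The list's median was -0.059, and -0.047 without pair 2, with 3 members at that level there too. Without pair 3 it was -0.12, with 4 members. Without the block 0 were at that level. B2m, the shared light chain, stood at -0.043 (95% interval -0.16 to 0.077).

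At day 6, in other libraries, 17 of the 19 lay below 0, beside 53.2% of all genes. At an unadjusted p below 0.05, 9 were lower and 1 higher, beside 3.17% of all genes lower there. The median was -0.15. Psmb9, Psmb8 and Psmb10, the immunoproteasome subunits, had log2 changes of -0.60, -0.34 and -0.21 at day 6 and of -0.24, 0.034 and -0.052 at day 3. Their day 3 intervals all included 0 (-0.99 to 0.51, -0.64 to 0.71 and -0.27 to 0.16). Psmb9 and Psmb8 were low at day 3, with means of 1.08 and 0.649 CPM over the 6 libraries. The edgeR test of the difference between days gave unadjusted p = 0.394, 0.291 and 0.218, so no difference between days was shown. None of these genes was called on either day. H2 genes are close copies of each other, so their counts may be split between them.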
